A study of Mus musculus with 14 samples.

Results

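The genes described here are 10 members of the Notch pathway, comprising the receptors Notch1, Notch2, Notch3 and Notch4, the ligands Dll4, Jag1 and Jag2, and the transcriptional repressors Hey1, Hey2 and Heyl. They were taken by gene symbol, and all 10 were measured among 19931 genes, each by 1 probe set of an Affymetrix Mouse Gene 1.0 ST array. The 14 arrays held RNA of embryonic mouse hearts, taken on day E12.5, in 4 genotypes. There were 4 Irx3-/-;Irx5-/- arrays (double mutants), 3 Irx5-/- arrays, 4 Irx3-/-;Irx5+/- arrays and 3 Irx5+/- arrays, and the series' own text sets the others against Irx5+/-. Irx3 and Irx5 encode homeodomain transcription factors of the Iroquois family. All 4 groups lack at least 1 working copy of Irx5 and no group is wild type, so a difference against Irx5+/- is one between mutants. The labels describe no deletion driver, no strain and no pooling, and they do not tell if every array had its own embryo. All p-values below therefore measure only how far these samples spread, which may be technical.

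Notch receptors are membrane proteins cut after they bind a Delta or Jagged ligand on a neighbouring cell, and the freed intracellular part joins the DNA-binding protein Rbpj to switch on targets such as the Hey genes. In the embryonic mouse heart, Notch1 in the endocardium, the inner endothelial lining, is needed for cushion formation and for trabeculation, the growth of muscle ridges into the ventricle. Hey1 is known from atrial and Hey2 from ventricular myocardium, and Notch3 and Heyl from smooth muscle and pericytes of vessels.

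Signals are log2 values per probe set, so a difference of 1 is a doubling of the linear signal, and values of different genes are not compared with each other. Array medians ran from 7.89 to 7.99. The probe set for Irx3 read 7.60 to 7.86 in double mutants, 8.14 to 8.25 in Irx5-/- hearts, 7.87 to 8.17 in Irx3-/-;Irx5+/- hearts and 8.43 to 8.53 in Irx5+/- hearts. The probe set for Irx5 read 7.52 to 8.43 in double mutants, 7.86 to 8.34 in Irx5-/- hearts, 8.21 to 8.31 in Irx3-/-;Irx5+/- hearts and 8.19 to 8.41 in Irx5+/- hearts, and these ranges overlap. The labels do not place these probe sets relative to either deletion. One array, Irx3-/-;Irx5+/- replicate 4, carries that genotype in its title and genotype fields and Irx5-/- in its description. It was kept with the group of its title, and its Irx3 signal of 8.17 lay above the 7.87 to 7.93 of the other 3 arrays there and within the Irx5-/- range. Its Notch4 signal of 8.87 and its mean over 25 endothelial markers of 10.23 lay above the Irx5-/- ranges, which were 8.33 to 8.51 and 9.27 to 9.60. Notch4 is 1 of the genes described, and both values come from these same data, so they do not settle the genotype of that array. The tissue label was borne out by cardiomyocyte markers, whose mean over 20 genes lay between 10.18 and 12.53 on all arrays, and Tnnt2, cardiac troponin T, averaged 13.49. A further array, Irx3-/-;Irx5+/- replicate 3, stood far above all others for Hey1, and values that rest on it are given with and without it.

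Promoter sequences show how far these genes resemble each other in the letters next to their starts. RefSeq windows on GRCm38.p6 were found for 8 of the 10 genes, all but Hey1 and Heyl. They were searched on both strands, with overlaps allowed, for the GC box GGGCGG bound by Sp factors, the Rbpj core TGGGAA and the pattern ACANNTGT reported for Iroquois proteins. The windows of 5 genes on which the results turn are printed below, namely the receptors Notch1 and Notch4, the pair Notch2 and Jag1, and Hey2. Each runs 5′ to 3′ over the 250 bases before the start given with that window, and capitals mark matches to any of the 3 patterns on either strand. For Notch4 the window runs past the gene start of 34564286 in the gene annotation.
Notch1 (chr2:26503823-26504072, minus strand): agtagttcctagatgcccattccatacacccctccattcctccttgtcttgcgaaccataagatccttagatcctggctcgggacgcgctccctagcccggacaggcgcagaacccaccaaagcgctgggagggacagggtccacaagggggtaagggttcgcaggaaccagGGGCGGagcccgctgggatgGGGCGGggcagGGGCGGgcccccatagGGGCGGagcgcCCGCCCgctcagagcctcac
Notch4 (chr17:34564045-34564294, plus strand): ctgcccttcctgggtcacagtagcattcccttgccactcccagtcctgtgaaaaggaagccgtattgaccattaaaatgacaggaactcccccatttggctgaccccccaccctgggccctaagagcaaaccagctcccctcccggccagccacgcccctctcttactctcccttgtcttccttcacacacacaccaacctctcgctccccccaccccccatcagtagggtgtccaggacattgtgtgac
Notch2 (chr3:98013288-98013537, plus strand): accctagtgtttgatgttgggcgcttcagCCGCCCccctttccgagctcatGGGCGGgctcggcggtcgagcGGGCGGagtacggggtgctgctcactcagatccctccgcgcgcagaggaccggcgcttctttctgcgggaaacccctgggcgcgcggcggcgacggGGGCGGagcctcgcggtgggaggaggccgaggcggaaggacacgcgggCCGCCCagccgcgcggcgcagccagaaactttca
Jag1 (chr2:137116521-137116770, minus strand): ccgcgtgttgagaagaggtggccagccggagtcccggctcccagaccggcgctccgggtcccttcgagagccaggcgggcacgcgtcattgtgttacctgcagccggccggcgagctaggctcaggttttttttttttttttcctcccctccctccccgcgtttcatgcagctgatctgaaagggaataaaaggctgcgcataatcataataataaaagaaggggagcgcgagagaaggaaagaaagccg
Hey2 (chr10:30842784-30843033, minus strand): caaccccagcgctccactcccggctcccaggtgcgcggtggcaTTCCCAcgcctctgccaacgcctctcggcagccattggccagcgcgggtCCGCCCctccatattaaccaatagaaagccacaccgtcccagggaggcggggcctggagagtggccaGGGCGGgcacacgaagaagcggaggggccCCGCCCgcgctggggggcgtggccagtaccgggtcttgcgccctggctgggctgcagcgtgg

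Notch1 and Notch2 each held 5 GC boxes and Hey2 held 3, whereas Notch4 and Jag1 held none. The GC box occurs in 32.7% of all 32851 windows of this length. The Rbpj core was found in 1 of the 8 windows, that of Hey2, on the minus strand at position -207 counted from the start, and 21.6% of all windows hold it. The Iroquois pattern was in none of the 8 windows, against 6.31% of all windows, which says only that these letters do not stand in these stretches. Of the windows not printed, Jag2 held 5 GC boxes, Notch3 held 4 and Dll4 held 2. The Jag2 window (chr12:112929496-112929745, minus strand) lies inside the annotated gene, which spans 112907803 to 112929812. That of Notch3 starts at 32166891 and overlaps its gene, which spans 32120820 to 32166896. Pairs of genes whose signals went together over the arrays, as described below, were alike in some cases and unlike in others. Notch2 and Notch3 have 5 and 4 GC boxes, whereas Notch1 has 5 and Notch4 none, and Notch2 has 5 and Jag1 none. The GC content was 66.0% for Notch1, 58.4% for Notch4, 72.0% for Notch2, 57.2% for Jag1 and 71.6% for Hey2, against a median of 52.4% over all windows.

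Across all 8 comparisons made, none of the 10 genes passed limma with Benjamini-Hochberg adjustment over all genes (0 of 80 results, smallest adjusted p = 0.150), and 13 of the 80 had an unadjusted p under 0.05. Over all genes the share at that level ran from 3.63% to 15.4% across these 8 comparisons. The whole array called few genes as well. Between double mutants and Irx5+/- hearts 4 of 19931 genes passed, or 0.0201%, and 13.5% had an unadjusted p under 0.05. The receptors lay lower and Hey2 higher in double mutants, with intervals that are wide because groups held 3 or 4 arrays. The comparisons share arrays with each other, so the values below are given side by side and are not independent repeats.

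Notch1 (probe set 10481056) encodes the main receptor of endocardium and endothelium. It read 9.91, 10.12, 9.38 and 9.37 in double mutants, 9.89, 9.44 and 9.86 in Irx5-/- hearts, 9.99, 9.69, 10 and 10.28 in Irx3-/-;Irx5+/- hearts, and 10.22, 10.25 and 10.28 in Irx5+/- hearts, in the order of the replicate numbers here and below. All 4 double mutant arrays and all 3 Irx5-/- arrays lay below all 3 Irx5+/- arrays, which were the tightest group with an SD of 0.03, and Irx3-/-;Irx5+/- arrays overlapped them. Over all genes, 5.58% in double mutants and 9.52% in Irx5-/- hearts had all arrays below Irx5+/-. The difference was -0.56 ± 0.19 (SE, adjusted p = 0.237 in limma) for double mutants, -0.52 ± 0.20 (adjusted p = 0.411) for Irx5-/- hearts and -0.26 ± 0.19 (adjusted p = 1.0) for Irx3-/-;Irx5+/- hearts. Set by the state of Irx5, the mean of both Irx5-/- groups minus that of both Irx5+/- groups was -0.41 ± 0.13 (unadjusted p = 0.00966, adjusted p = 0.204), and the matching value for loss of Irx3 was -0.15 ± 0.13. In the comparison by Irx5 0.0151% of all genes passed and 15.4% had an unadjusted p under 0.05.

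Notch4 (probe set 10444352) encodes a receptor largely restricted to endothelium. Its signal was 8.66, 8.78, 8.48 and 8.32 in double mutants, 8.36, 8.33 and 8.51 in Irx5-/- hearts, 8.76, 8.75, 8.83 and 8.87 in Irx3-/-;Irx5+/- hearts, and 8.65, 8.81 and 8.72 in Irx5+/- hearts. The 3 Irx5-/- arrays lay below all Irx5+/- arrays, whereas the double mutants spread across both ranges. Against Irx5+/- hearts the difference was -0.16 ± 0.11 (adjusted p = 0.553 in limma) in double mutants, or -0.08 without Irx3-/-;Irx5-/- replicate 4, and -0.32 ± 0.12 (adjusted p = 0.374) in Irx5-/- hearts. Averaged over the state of Irx3, loss of Irx5 gave -0.28 ± 0.08 (unadjusted p = 0.00263, adjusted p = 0.150), the smallest adjusted p of any member. The Irx3-/-;Irx5+/- mean of 8.80 ± 0.06 (SD, n = 4) was slightly above the Irx5+/- mean of 8.72 ± 0.08 (n = 3).

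Notch2 (probe set 10494595) encodes a receptor known from cushion mesenchyme and from smooth muscle of the outflow vessels. The arrays gave 8.87, 9.03, 8.80 and 9.06 in double mutants, 10.17, 8.86 and 9.88 in Irx5-/- hearts, 9.09, 9.28, 10.34 and 9.21 in Irx3-/-;Irx5+/- hearts, and 9.84, 9.65 and 9.97 in Irx5+/- hearts. All 4 double mutant arrays lay below all 3 Irx5+/- and all 4 Irx3-/-;Irx5+/- arrays, and Irx5-/- replicate 2 lay among them. The difference of double mutants from Irx5+/- was -0.88 ± 0.30, a signal 0.543 times as high (95% interval -1.54 to -0.23 in log2, unadjusted p = 0.0122, adjusted p = 0.241 in limma). With a fit on only those 2 groups the adjusted p was 0.0671, the lowest for any member in any setting tried, and still over 0.05. From Irx5-/- hearts double mutants differed by -0.70 ± 0.30 (adjusted p = 1.0), and from Irx3-/-;Irx5+/- hearts by -0.54 ± 0.28 (adjusted p = 0.669), or -0.26 without Irx3-/-;Irx5+/- replicate 3. In the last comparison 2.18% of all genes had all double mutant arrays below the others.

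Single arrays moved the other comparisons of Notch2 with Irx5+/-. Irx5-/- hearts differed from Irx5+/- by -0.18 ± 0.33, and by 0.21 without Irx5-/- replicate 2. For Irx3-/-;Irx5+/- hearts the difference was -0.34 ± 0.30, and it stayed below 0 with any 1 array left out, from -0.62 without replicate 3 to -0.21 without replicate 1. Loss of Irx3 averaged over both states of Irx5 gave -0.52 ± 0.22 (unadjusted p = 0.0311, adjusted p = 1.0 in limma), where 4.80% of all genes had an unadjusted p under 0.05. The interaction, taken as the Irx3 effect without Irx5 minus that with 1 copy of Irx5, was -0.36 ± 0.43 and did not pass. No member had an unadjusted p under 0.05 for the interaction, against 4.04% of all genes.

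Notch3 (probe set 10449775) is the receptor of vascular smooth muscle and pericytes. It read 8.67, 8.82, 8.58 and 8.65 in double mutants, 9.18, 8.31 and 9.01 in Irx5-/- hearts, 8.65, 8.81, 9.17 and 8.38 in Irx3-/-;Irx5+/- hearts, and 8.97, 9.10 and 9.67 in Irx5+/- hearts. The double mutants formed a tight group below all Irx5+/- arrays, of which replicate 3 was the highest of all 14 arrays, and the other groups overlapped Irx5+/-. The difference was -0.57 ± 0.22 (adjusted p = 0.297 in limma) in double mutants, -0.41 ± 0.24 (adjusted p = 0.554) in Irx5-/- hearts and -0.49 ± 0.22 (unadjusted p = 0.0472, adjusted p = 0.975) in Irx3-/-;Irx5+/- hearts. Without Irx5+/- replicate 3 the double mutant value was -0.36 and that of Irx3-/-;Irx5+/- hearts -0.28, and without Irx5-/- replicate 2 the Irx5-/- value was -0.15. Against Irx5+/-, 5.07% of all genes had an unadjusted p under 0.05 in Irx3-/-;Irx5+/- hearts.

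Taking the 4 receptors as a list, all 4 differences from Irx5+/- were below 0 in double mutants, with a median of -0.56, and 3 of the 4 had an unadjusted p under 0.05 in that direction. Over all genes, 11177 of 19931 were below 0, 5.56% were lower at that level and the median was -0.03. In Irx5-/- hearts all 4 were below 0 as well, with a median of -0.37 against -0.03 over all genes, and 2 of the 4 had an unadjusted p under 0.05. There 11085 of 19931 genes were below 0, and 4.66% of all genes were lower at that level. In Irx3-/-;Irx5+/- hearts 3 of the 4 were below 0, against 9958 of 19931 genes.

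**Figure D1:**
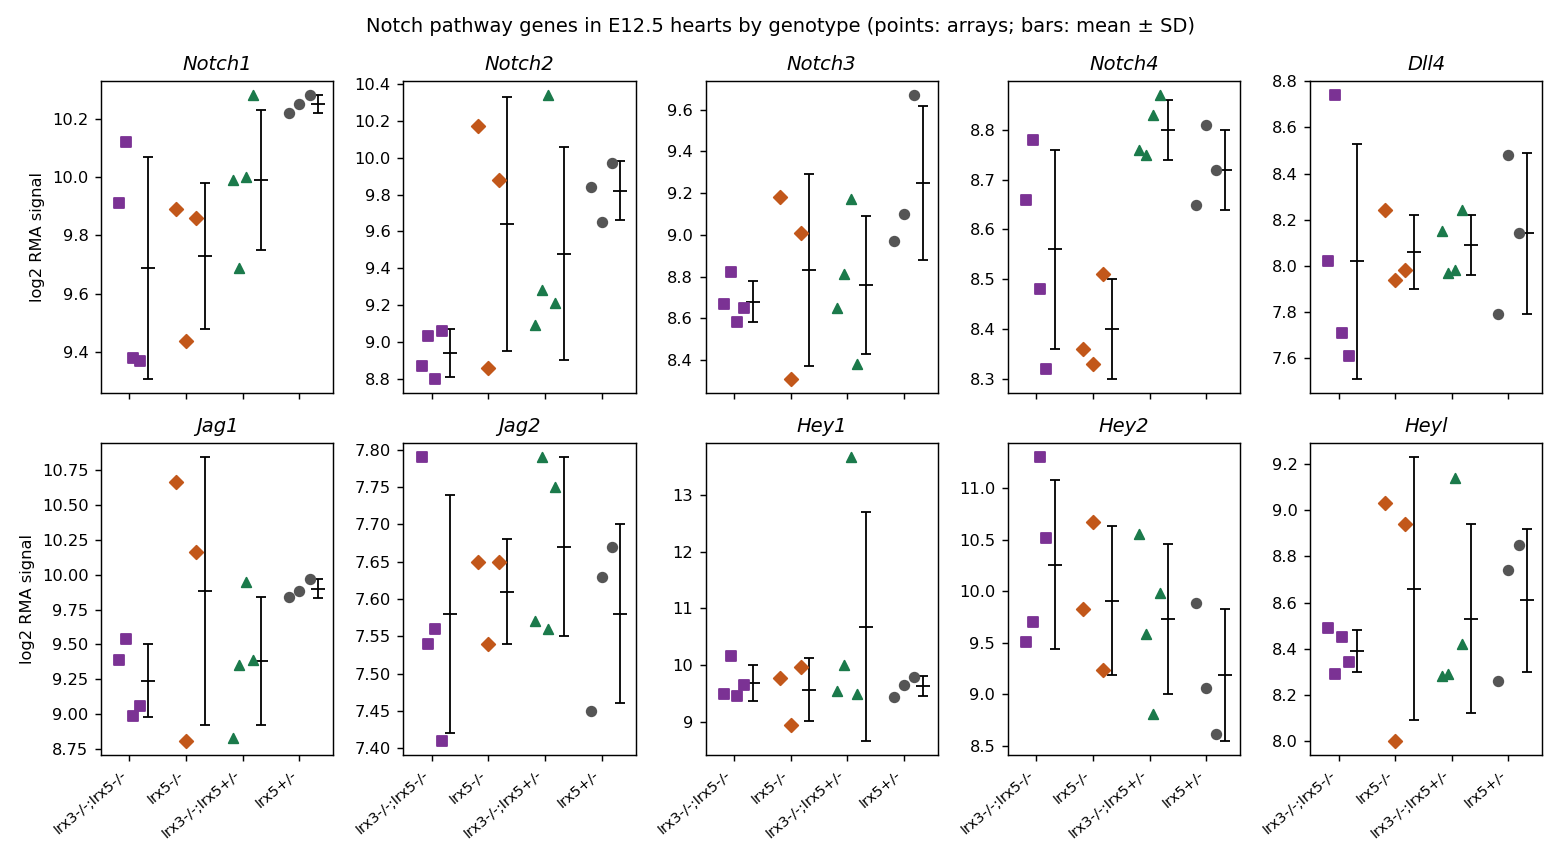
Log2 RMA signal of the 10 Notch pathway genes on each of the 14 arrays, with the genotypes along the horizontal axis, a separate vertical scale per gene, and bars for mean ± SD. Double mutants lie below all Irx5+/- arrays for Notch1, Notch2, Notch3 and Jag1, and a single Irx3-/-;Irx5+/- array reads 13.66 for Hey1.

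Among the 3 ligands, only Jag1 had all double mutant arrays below all Irx5+/- arrays, as did 5.58% of all genes. Jag1 (probe set 10488060) encodes a Jagged ligand needed for outflow tract and valve development, and its human counterpart is mutated in Alagille syndrome. Its values were 9.39, 9.54, 8.99 and 9.06 in double mutants, 10.66, 8.81 and 10.16 in Irx5-/- hearts, 8.83, 9.35, 9.95 and 9.39 in Irx3-/-;Irx5+/- hearts, and 9.84, 9.88 and 9.97 in Irx5+/- hearts. The double mutants lay below all Irx5+/- arrays, and the Irx5-/- arrays spread over the whole range of the study, with both its highest value and its lowest. The difference from Irx5+/- was -0.65 ± 0.35 (unadjusted p = 0.0818, adjusted p = 0.441 in limma) in double mutants and -0.52 ± 0.35 (adjusted p = 1.0) in Irx3-/-;Irx5+/- hearts. For Irx5-/- hearts it was -0.02 ± 0.37 and turned to 0.51 without replicate 2, and the Irx3-/-;Irx5+/- value was -0.33 without replicate 1. Averaged over the state of Irx5, loss of Irx3 gave -0.58 ± 0.25 (unadjusted p = 0.0352, adjusted p = 1.0).

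Dll4 (probe set 10474958) is the Delta ligand of arterial endothelium and early endocardium. It gave 8.02, 8.74, 7.71 and 7.61 in double mutants, 8.24, 7.94 and 7.98 in Irx5-/- hearts, 8.15, 7.97, 7.98 and 8.24 in Irx3-/-;Irx5+/- hearts, and 7.79, 8.48 and 8.14 in Irx5+/- hearts. The double mutants held the highest value and the lowest of all arrays, and every group overlapped the Irx5+/- range. The difference of double mutants was -0.12 ± 0.23 (95% interval -0.61 to 0.38, adjusted p = 0.866 in limma), and the group means ran only from 8.02 ± 0.51 (SD, n = 4) in double mutants to 8.14 ± 0.35 (n = 3) in Irx5+/- hearts. Jag2 (probe set 10402808) encodes the other Jagged ligand. Its values ran from 7.41 to 7.79 in double mutants, 7.54 to 7.65 in Irx5-/- hearts, 7.56 to 7.79 in Irx3-/-;Irx5+/- hearts and 7.45 to 7.67 in Irx5+/- hearts. All groups overlapped, with a difference of -0.01 ± 0.11 (95% interval -0.24 to 0.22, adjusted p = 0.980) for double mutants against Irx5+/-.

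Hey2 (probe set 10368556) encodes the Hey repressor of ventricular compact myocardium. It read 9.51, 9.70, 11.30 and 10.52 in double mutants, 9.83, 10.67 and 9.24 in Irx5-/- hearts, 10.56, 9.59, 8.81 and 9.98 in Irx3-/-;Irx5+/- hearts, and 9.89, 9.06 and 8.62 in Irx5+/- hearts. The mean was highest in double mutants and lowest in Irx5+/- hearts, the reverse of Notch1, Notch2 and Notch3 at these ends but not of Notch4, with 10.26 ± 0.82 (SD, n = 4) in double mutants, 9.91 ± 0.72 (n = 3) in Irx5-/- hearts, 9.73 ± 0.73 (n = 4) in Irx3-/-;Irx5+/- hearts and 9.19 ± 0.64 (n = 3) in Irx5+/- hearts. Neighbouring means in this order differed by less than their SDs, and all groups overlapped Irx5+/-. The difference of double mutants was 1.07 ± 0.49, a signal 2.09 times as high (95% interval 0.01 to 2.13, unadjusted p = 0.0486, adjusted p = 0.367 in limma). It was 0.72 without Irx3-/-;Irx5-/- replicate 3 and 1.42 without Irx5+/- replicate 1. The values for Irx5-/- and Irx3-/-;Irx5+/- hearts were 0.72 ± 0.53 (adjusted p = 0.621) and 0.55 ± 0.49 (adjusted p = 1.0). They were 0.34 without Irx5-/- replicate 2 and 0.26 without Irx5+/- replicate 3.

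Heyl (probe set 10507840) is the Hey gene of vascular smooth muscle. It ranged from 8.29 to 8.49 in double mutants, 8.0 to 9.03 in Irx5-/- hearts, 8.28 to 9.14 in Irx3-/-;Irx5+/- hearts and 8.26 to 8.85 in Irx5+/- hearts. The groups overlapped throughout, and double mutants were the tightest. The difference from Irx5+/- was -0.22 ± 0.25 (adjusted p = 0.741 in limma) in double mutants, 0.05 ± 0.27 in Irx5-/- hearts and -0.08 ± 0.25 in Irx3-/-;Irx5+/- hearts, the last being -0.28 without replicate 3. Without 1 array the double mutant value ran from -0.40 to -0.11, and that of Irx5-/- hearts was 0.37 without replicate 2.

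Hey1 (probe set 10497203) is the Hey gene of atrial myocardium and endothelium. Its signal was 9.50, 10.16, 9.45 and 9.65 in double mutants, 9.78, 8.94 and 9.97 in Irx5-/- hearts, 9.54, 10.01, 13.66 and 9.49 in Irx3-/-;Irx5+/- hearts, and 9.44, 9.66 and 9.80 in Irx5+/- hearts. Apart from the 13.66 of Irx3-/-;Irx5+/- replicate 3, the arrays lay between 8.94 and 10.16. That array was 3.50 above the next, the only gap over 3 log2 units at the top of any of the 19931 genes. The difference of Irx3-/-;Irx5+/- from Irx5+/- hearts was 1.04 ± 0.75 with it and 0.05 ± 0.26 without it (adjusted p = 1.0 in limma for both). Double mutants differed from Irx5+/- by 0.06 ± 0.75, and the large error of that fit came with the same array, since all groups share 1 estimate of the spread. Against Irx3-/-;Irx5+/- hearts the double mutants lay at -0.98 ± 0.70, and at 0.01 without replicate 3 of that group.

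**Figure D2:**
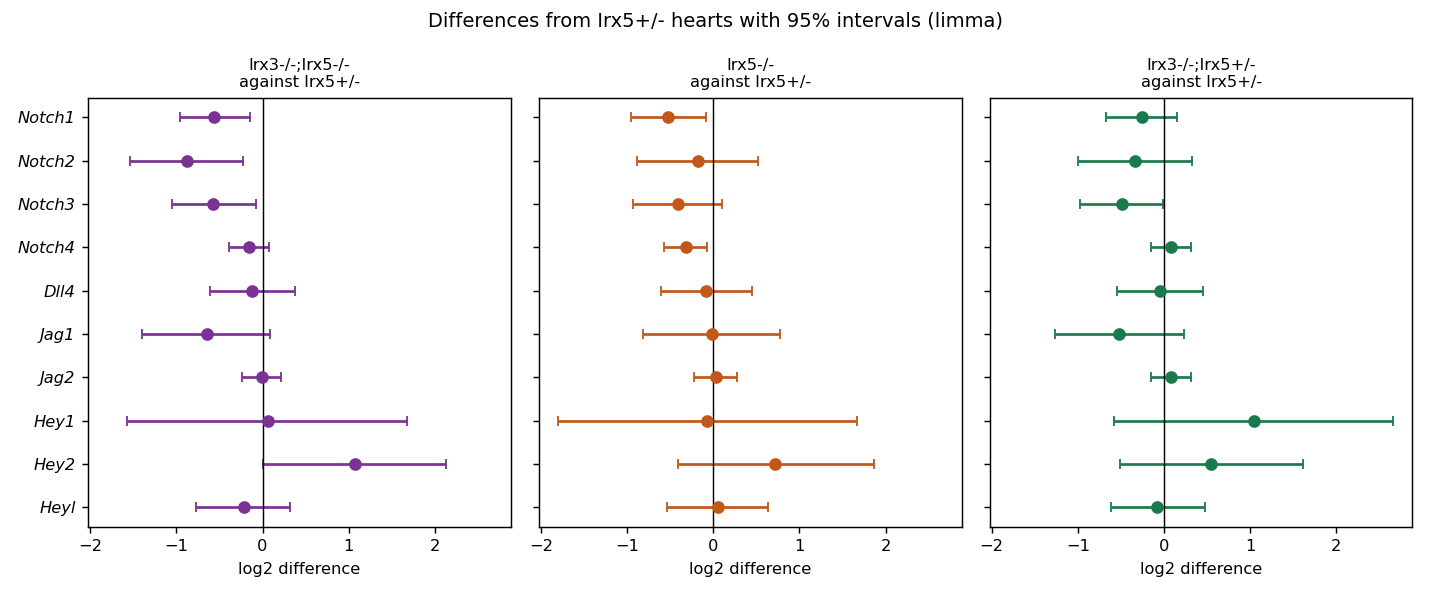
Log2 difference of each Notch pathway gene from Irx5+/- hearts, with 95% intervals of the limma fit on 14 arrays, for double mutants, Irx5-/- hearts and Irx3-/-;Irx5+/- hearts from left to right. Intervals of Notch1, Notch2 and Notch3 lie below 0 and that of Hey2 touches it from above in double mutants, while those of Hey1 are wide in all 3 panels.

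Over all 10 members the median difference from Irx5+/- was -0.19 in double mutants, -0.07 in Irx5-/- hearts and -0.06 in Irx3-/-;Irx5+/- hearts, against -0.03, -0.03 and 0.00 over all genes. In double mutants 8 of 10 were below 0, 3 of 10 were lower and 1 of 10 higher at an unadjusted p under 0.05, and 0 of 10 passed. Over all genes 11177 of 19931 were below 0, 5.56% were lower and 7.90% higher at that level, and 0.0201% passed. In Irx5-/- hearts 7 of 10 were below 0, against 11085 of 19931 genes, and 2 of 10 had an unadjusted p under 0.05, against 10.6% of all genes. Irx3-/-;Irx5+/- hearts had 1 of 10 at that level, Notch3, against 5.07% of all genes. In both of these comparisons 0 of 19931 genes passed. Double mutants against Irx3-/-;Irx5+/- hearts gave 9 of 10 below 0 with a median of -0.14, against 11057 of 19931 genes below 0. That count rests on Irx3-/-;Irx5+/- replicate 3. Without this array the median was -0.04. Notch3, Jag1, Hey1 and Heyl then lay at 0.06, 0.05, 0.01 and 0.06, and the other members kept their signs. Notch4 at -0.24 ± 0.10 (unadjusted p = 0.0311, adjusted p = 0.618 in limma) was the 1 member at that level. Of all genes 0.00502% passed and 7.67% had an unadjusted p under 0.05 there. Against Irx5-/- hearts the median of double mutants was -0.04, with Notch2 the 1 member at that level and 3.63% of all genes.

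Marker lists of cell types also differed in level between the genotypes. Fewer cells of a type and less RNA per cell cannot be told apart in RNA of whole hearts. The 25 endothelial and endocardial markers, among them Pecam1, Cdh5 and Kdr, averaged 9.01 to 9.93 per array in double mutants, 9.27 to 9.60 in Irx5-/- hearts, 9.79 to 10.23 in Irx3-/-;Irx5+/- hearts and 10 to 10.31 in Irx5+/- hearts. Double mutant and Irx5-/- arrays lay below all Irx5+/- arrays. All 25 had a difference below 0 from Irx5+/- in double mutants, with a median of -0.70, and in Irx5-/- hearts, with a median of -0.64. At an unadjusted p under 0.05 in limma 19 of 25 were lower in double mutants and 18 of 25 in Irx5-/- hearts, and 0 of 25 passed in either. Over all genes 5.56% and 4.66% were lower at that level, and the median was -0.03 in both. The 20 cardiomyocyte markers averaged 11.96 to 12.43 per array in double mutants, 11.54 to 12.53 in Irx5-/- hearts, 11.47 to 12.28 in Irx3-/-;Irx5+/- hearts and 10.18 to 11.98 in Irx5+/- hearts, where replicate 3 was the lowest of all arrays. All 20 were above 0 in double mutants, with a median of 1.21, 17 of 20 at an unadjusted p under 0.05, and 0 of 20 passed. Higher at that level were 7.90% of all genes. The shift against Irx5+/- was not limited to double mutants. In Irx3-/-;Irx5+/- hearts 19 of 20 cardiomyocyte markers were above 0, with a median of 0.95, and in Irx5-/- hearts 19 of 20, with a median of 0.91. Double mutants differed less from these groups, with medians of 0.21 against Irx3-/-;Irx5+/- and 0.27 against Irx5-/- hearts. The 10 smooth muscle and pericyte markers, the cells in which Notch3 and Heyl are known, averaged 9.22 to 9.87 per array in double mutants and 9.55 to 9.70 in Irx5+/- hearts, and their median difference was 0.23. Median differences of the remaining lists between these groups were 0.20 for 11 cushion mesenchyme, 0.46 for 8 epicardial, -0.01 for 6 arterial, 0.63 for 5 erythroid, 0.02 for 6 macrophage and -0.07 for 4 neural crest and neural markers, and none of their genes passed.

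With each array's endothelial marker mean as a term of the fit, the difference of double mutants from Irx5+/- was -0.09 ± 0.21 for Notch1 and 0.08 ± 0.13 for Notch4, and in Irx5-/- hearts it was -0.07 ± 0.21 and -0.09 ± 0.13. Under the same term Notch2 lay at -1.18 ± 0.43 and Notch3 at -0.74 ± 0.32 in double mutants. Dll4 changed sign, to 0.51 ± 0.23 (unadjusted p = 0.0443, adjusted p = 0.514 in limma) in double mutants and 0.52 ± 0.23 (unadjusted p = 0.0435, adjusted p = 0.582) in Irx5-/- hearts, from -0.12 and -0.08 without the term. With the cardiomyocyte mean as a term instead, Notch1 lay at -0.38 ± 0.24, Notch2 at -0.31 ± 0.33, Notch3 at -0.00 ± 0.18, Jag1 at 0.01 ± 0.37 and Hey2 at -0.14 ± 0.41 in double mutants. Notch4, Dll4 and Jag2 lay at -0.08 ± 0.14, 0.05 ± 0.30 and 0.11 ± 0.14. Hey1 and Heyl moved away from 0, to 1.19 ± 0.88 and 0.38 ± 0.22, from 0.06 and -0.22 without the term. In Irx5-/- hearts Heyl lay at 0.49 ± 0.21 (unadjusted p = 0.0353, adjusted p = 0.527 in limma), from 0.05. None passed under either term in limma. The part of cell makeup in the differences was not tested, as the marker means themselves differ with genotype.

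**Figure D3:**
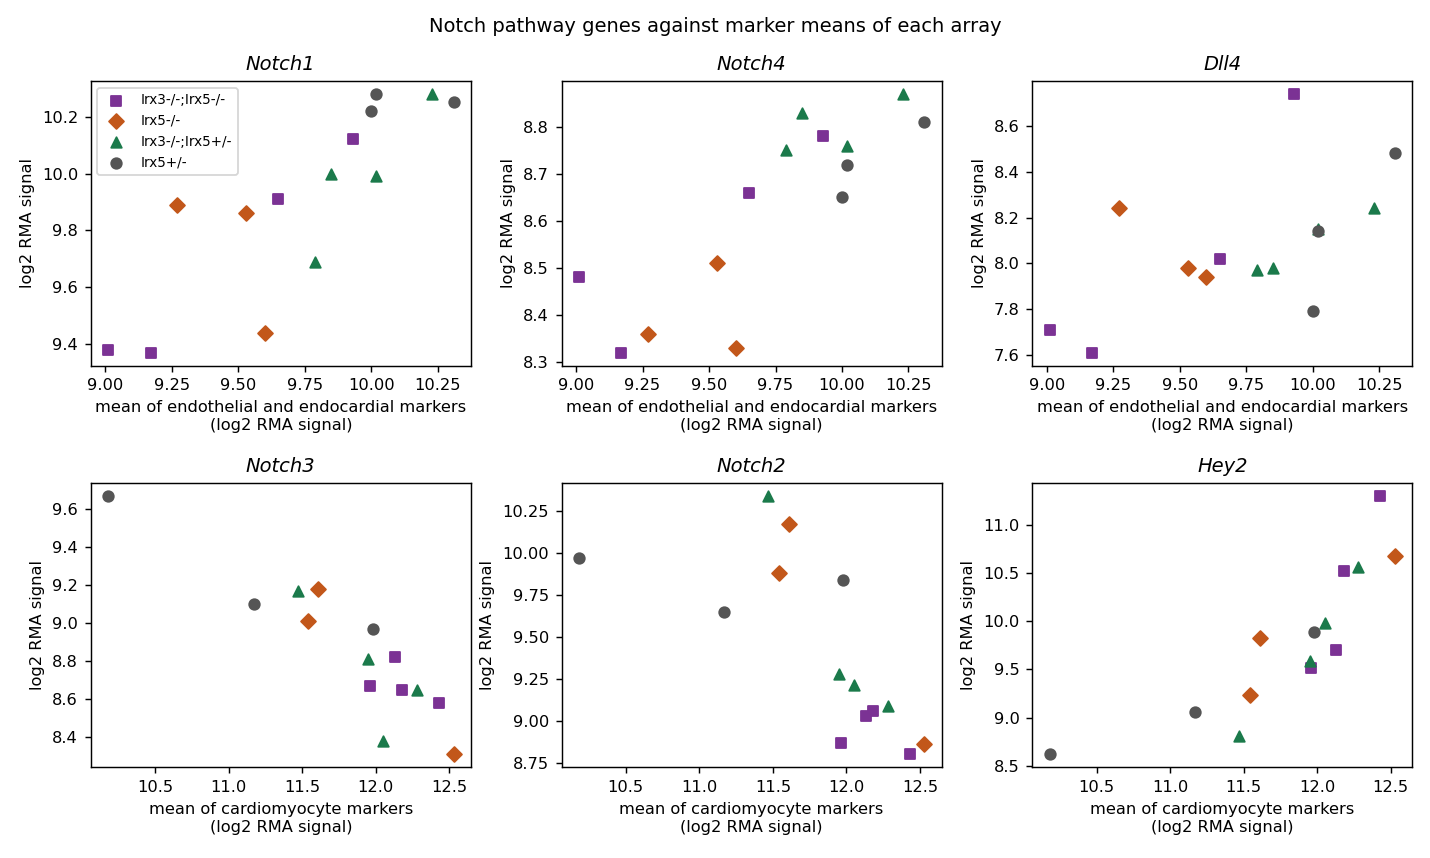
Log2 RMA signal of Notch1, Notch4 and Dll4 against each array's mean of 25 endothelial and endocardial markers (top), and of Notch3, Notch2 and Hey2 against its mean of 20 cardiomyocyte markers (bottom), 1 point per array. Notch1 and Notch4 are high where the endothelial mean is high, Notch3 and Notch2 are low and Hey2 is high where the cardiomyocyte mean is high.

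Over the 14 arrays Notch1 followed the endothelial marker mean with Pearson's r = 0.84 (permutation p = 0.00022, adjusted p = 0.0066 over 90 relations of 10 genes with 9 marker lists, 100000 resamples) and Spearman's rho = 0.90 (adjusted p = 0.00135). It was 0.70 without the 2 arrays farthest from the median marker mean and 0.72 over deviations from the group means. Notch4 gave r = 0.83 (permutation p = 0.00031, adjusted p = 0.00697) and rho = 0.80 (adjusted p = 0.0129), with 0.82 and 0.79 in the same checks. Dll4 reached r = 0.58 (permutation p = 0.0281, adjusted p = 0.181) and did not pass.

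Other members were related to the cardiomyocyte marker mean. Notch3 went against it with r = -0.91 (permutation p = 2e-05, adjusted p = 0.0018) and rho = -0.88 (adjusted p = 0.0027), and gave -0.85 both without the 2 farthest arrays and within groups. Notch2 gave r = -0.70 (permutation p = 0.00233, adjusted p = 0.0419) and rho = -0.82 (adjusted p = 0.011), with -0.87 and -0.62 in these checks. Hey2 went with it, at r = 0.84 (permutation p = 0.00015, adjusted p = 0.0066) and rho = 0.94 (adjusted p = 0.00135), with 0.87 and 0.80. These 5 were the relations of 90 that passed on r. Jag1 with the cardiomyocyte mean gave r = -0.67 (permutation test, adjusted p = 0.0804) and rho = -0.85 (adjusted p = 0.00742). With the cushion mesenchyme mean Notch2, Notch3 and Jag1 gave r = 0.37, 0.51 and 0.54 over all arrays, none of which passed. Within groups these were 0.83, 0.85 and 0.80, and with the epicardial mean 0.63, 0.69 and 0.75. The cardiomyocyte list is therefore not the only one that these genes went with. All points share the normalization of 1 set of arrays.

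Some members went together over the 14 arrays, and the grouping below, of 45 pairs, was made after the values were seen. Notch2 and Jag1, a receptor and a ligand, gave r = 0.87 (permutation p = 9e-05, adjusted p = 0.00405) and rho = 0.84 (adjusted p = 0.00555), with 0.87 without the 2 farthest arrays and 0.88 within groups. Notch2 with Notch3 gave r = 0.81 (permutation p = 0.00039, adjusted p = 0.00585) and rho = 0.84 (adjusted p = 0.00555), and within groups 0.84. Jag1 with Heyl also gave r = 0.81 (permutation p = 0.00037, adjusted p = 0.00585) and rho = 0.75 (adjusted p = 0.022). The set of Notch2, Notch3, Jag1 and Heyl had r between 0.74 and 0.87 for each of its pairs.

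Notch1 and Notch4, both endothelial receptors, gave r = 0.75 (permutation p = 0.00255, adjusted p = 0.0143) and rho = 0.73 (adjusted p = 0.024), with 0.65 without the 2 farthest arrays and 0.82 within groups. Notch4 with Notch2, Notch3 and Jag1 gave 0.15, 0.20 and 0.07. Notch1 stood closer to them, with r = 0.49 for Notch2, 0.50 for Notch3 and 0.51 for Jag1, none of which passed (adjusted p = 0.167, 0.159 and 0.155), so the separation from that set rests on Notch4. Hey2 went against every other member, with r below 0 in 9 of 9 pairs, led by Notch3 at r = -0.77 (permutation p = 0.00119, adjusted p = 0.0102) and rho = -0.81 (adjusted p = 0.00765), which was -0.66 without the 2 farthest arrays and -0.71 within groups. In all, 15 of the 45 pairs had an adjusted p of r under 0.05, 10 with r above 0 and 5 with r below 0, and all 5 below 0 involved Hey2. Of these, the pair of Hey1 and Heyl (r = 0.60) was 0.21 without the 2 farthest arrays, and the pair of Hey1 and Notch2 (r = 0.56) was 0.35. Notch1 with Dll4 (r = 0.63) was 0.39 and Notch1 with Hey2 (r = -0.67) was -0.45 in the same check. Jag2 had no r above 0.40 with any member.

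**Figure D4:**
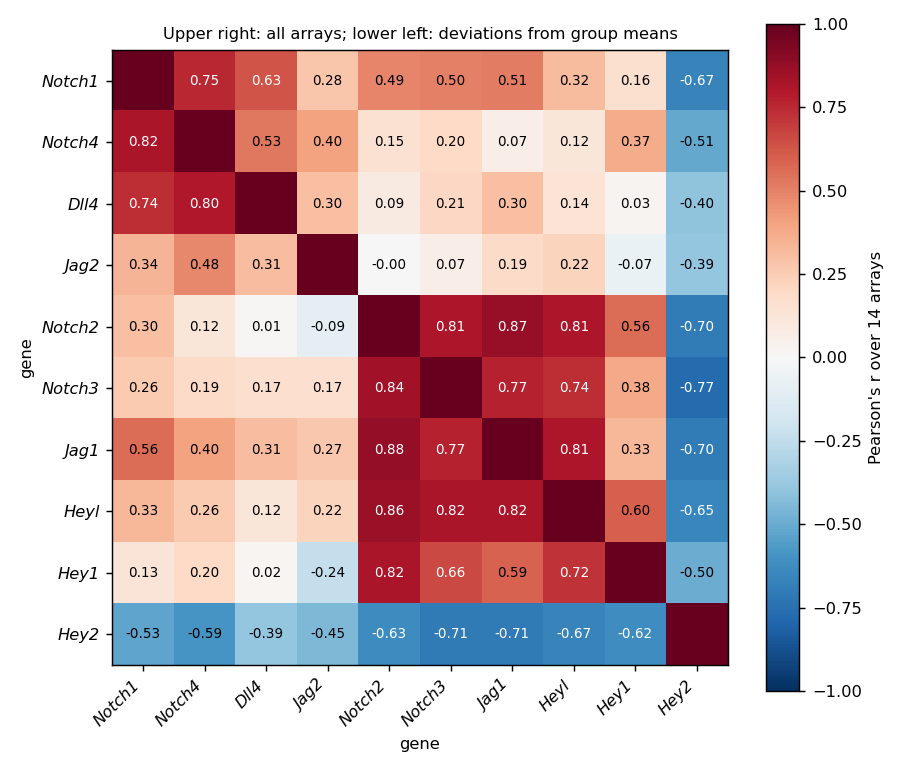
Pearson's r between the 10 Notch pathway genes over 14 arrays, with log2 signals of all arrays in the upper right and deviations from the group means in the lower left. Notch2, Notch3, Jag1 and Heyl form 1 block with r of 0.74 or more, Notch1 with Notch4 and with Dll4 gives 0.75 and 0.63, and the row and column of Hey2 are negative.

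On some single arrays Hey2 stood against most other members. Irx5-/- replicate 2 was the lowest of its 3 arrays for 9 of the 10 members and the highest for Hey2, and its cardiomyocyte marker mean of 12.53 was the highest of all arrays. Irx5+/- replicate 3 was the highest of its group for 7 of the 10 and the lowest for Hey2, with the lowest cardiomyocyte mean, 10.18. In that same group, replicate 1 was the lowest for 8 of the 10 and the highest for Hey2. Its cardiomyocyte mean of 11.98 was the highest of the Irx5+/- arrays, so this group split in opposite directions. Among double mutants, replicate 2 was the highest for 6 of the 10 and had the highest endothelial marker mean of its group, 9.93.

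By Pearson's r over the 14 arrays among 16976 named genes, the genes most like each member were as follows. Ctso (0.94), Myo6 (0.93) and Igfbp5 (0.92) were nearest to Notch1, and Col13a1 (0.94), Sh2d3c (0.92) and Trex1 (0.92) to Notch4. Chd3 (0.96), Mmp16 (0.96) and Alcam (0.95) were nearest to Notch2, Cald1 (0.93), Ddr2 (0.90) and Slit3 (0.90) to Notch3, and Atrnl1 (0.94), Tmcc3 (0.93) and Slit3 (0.92) to Jag1. Mmp16 stood again among the nearest to Heyl (0.91), after Pde5a and Col1a1 (0.92 each), so that both Slit3 and Mmp16 recurred in the set of Notch2, Notch3, Jag1 and Heyl.

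Hey2 had Atp5b (0.94), a subunit of the mitochondrial ATP synthase, Lpl (0.93), lipoprotein lipase, and Hspa9 (0.93), a mitochondrial chaperone, as its nearest genes. Over deviations from group means its nearest were Mb (0.95), myoglobin, Wdr3 (0.95) and Tnnt1 (0.94). Over such deviations Ctso was nearest to both Notch1 (0.92) and Notch4 (0.93), and over all arrays it was nearest to Notch1 alone of these. Dll4 had Rbm4b (0.89), Klhl34 (0.83) and Cad (0.81), and Jag2 had Gabarapl1 (0.89), Hoxb5 (0.87) and Clcf1 (0.87). For Hey1 the nearest were Syne4 (0.96), Ebf2 (0.92) and Tssk3 (0.91), which gave 0.67, 0.32 and 0.17 without Irx3-/-;Irx5+/- replicate 3. Without that array the nearest to Hey1 were Stimate (0.86), Gli3 (0.85) and Cacng4 (0.85).

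Beyond these members, 50 other Notch pathway genes were measured, of 52 listed, and 0 of 50 passed in any comparison. Between double mutants and Irx5+/- hearts 6 of 50 were higher and 6 of 50 lower at an unadjusted p under 0.05, where 7.90% and 5.56% of all genes were, and the median was -0.01. Of 11 genes that carry the signal, 1 was higher and 2 were lower at that level, with a median of -0.05. Rbpj lay at -0.05 ± 0.19, Adam10, a protease that cuts the receptor outside the membrane, at -0.38 ± 0.14 (adjusted p = 0.268 in limma), and Maml2 and Aph1b are given below. The Hes targets Hes1 and Hes5 lay at -0.01 ± 0.19 and 0.05 ± 0.12. Nrarp, an inhibitor that Notch itself induces, lay at -0.43 ± 0.16 with all double mutant arrays below Irx5+/- (adjusted p = 0.268 in limma), and Efnb2, ephrin-B2 of arterial endothelium and endocardium, at -0.71 ± 0.23, likewise (adjusted p = 0.219). Over all genes 5.58% had all double mutant arrays below Irx5+/-. Nrarp and Efnb2 were singled out after their values were seen.

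Of the outputs linked to Notch in the heart, Gja5, the connexin of atrial muscle and trabeculae, read 10.23, 10.84, 11.14 and 10.44 in double mutants, 9.99, 10.97 and 10.09 in Irx5-/- hearts, 10.63, 9.74, 9.92 and 10.08 in Irx3-/-;Irx5+/- hearts, and 9.99, 8.31 and 7.38 in Irx5+/- hearts. All double mutants lay above all Irx5+/- arrays, and the other groups overlapped them through Irx5+/- replicate 1. The differences from Irx5+/- were 2.10 ± 0.47 (adjusted p = 0.122 in limma) in double mutants, 1.79 ± 0.50 (adjusted p = 0.289) in Irx5-/- hearts and 1.53 ± 0.47 (adjusted p = 0.844) in Irx3-/-;Irx5+/- hearts. Ccnd1, cyclin D1, set the double mutants, at 10.77 to 10.96, above all Irx5-/- hearts (10 to 10.53), Irx3-/-;Irx5+/- hearts (10.30 to 10.62) and Irx5+/- hearts (10.20 to 10.34), with 0.61 ± 0.13 against Irx5+/- (adjusted p = 0.111). Bmp10, a growth factor of trabecular muscle, lay at 0.93 ± 0.29 (adjusted p = 0.205), Bmp2, a factor of the atrioventricular canal, at 1.07 ± 0.35 (adjusted p = 0.212), and Aph1b, a subunit of the γ-secretase that cuts Notch, at 0.46 ± 0.14 (adjusted p = 0.197), each with all double mutants above Irx5+/-. Over all genes 6.48% had all double mutant arrays above Irx5+/-, as did 6 of the 50 other Notch pathway genes. Gja5, Ccnd1, Bmp10, Bmp2 and Aph1b were named by smallest p, so such a separation is more likely among them. Not all outputs were higher. Of 14 listed, 4 were higher and 2 lower at an unadjusted p under 0.05, against 7.90% and 5.56% of all genes. The lower ones were Efnb2 and Nrg1. Nrg1 lay at -0.36 ± 0.16 against Irx5+/- hearts (unadjusted p = 0.0404, adjusted p = 0.345 in limma). Against Irx3-/-;Irx5+/- hearts it was -0.39 ± 0.15 (unadjusted p = 0.02, adjusted p = 0.597).

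Fbxw7, which marks the Notch intracellular part for breakdown, lay above Irx5+/- on every mutant array without passing the test. It read 9.61, 9.70, 9.82 and 9.80 in double mutants, 9.80, 9.75 and 9.70 in Irx5-/- hearts, 9.67, 9.68, 9.54 and 10.02 in Irx3-/-;Irx5+/- hearts, and 9.42, 9.14 and 9.31 in Irx5+/- hearts, so that no mutant array overlapped Irx5+/-. The differences were 0.44 ± 0.12 (adjusted p = 0.158 in limma) in double mutants, 0.46 ± 0.12 (adjusted p = 0.267) in Irx5-/- hearts and 0.44 ± 0.12 (adjusted p = 0.781) in Irx3-/-;Irx5+/- hearts, and the Irx5+/- arrays are common to all 3. In these comparisons 6.48%, 6.71% and 2.86% of all genes had all mutant arrays above Irx5+/-. Maml2, a coactivator of the Notch complex, lay at -0.66 ± 0.22 in double mutants (adjusted p = 0.219), at -0.80 ± 0.23 in Irx5-/- hearts (adjusted p = 0.317) and at -0.80 ± 0.22 in Irx3-/-;Irx5+/- hearts (adjusted p = 0.781). Dll1, another Delta ligand, lay at -0.57 ± 0.20 in Irx5-/- hearts (adjusted p = 0.361), with all arrays below Irx5+/-, as for 9.52% of all genes.

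**Figure D5:**
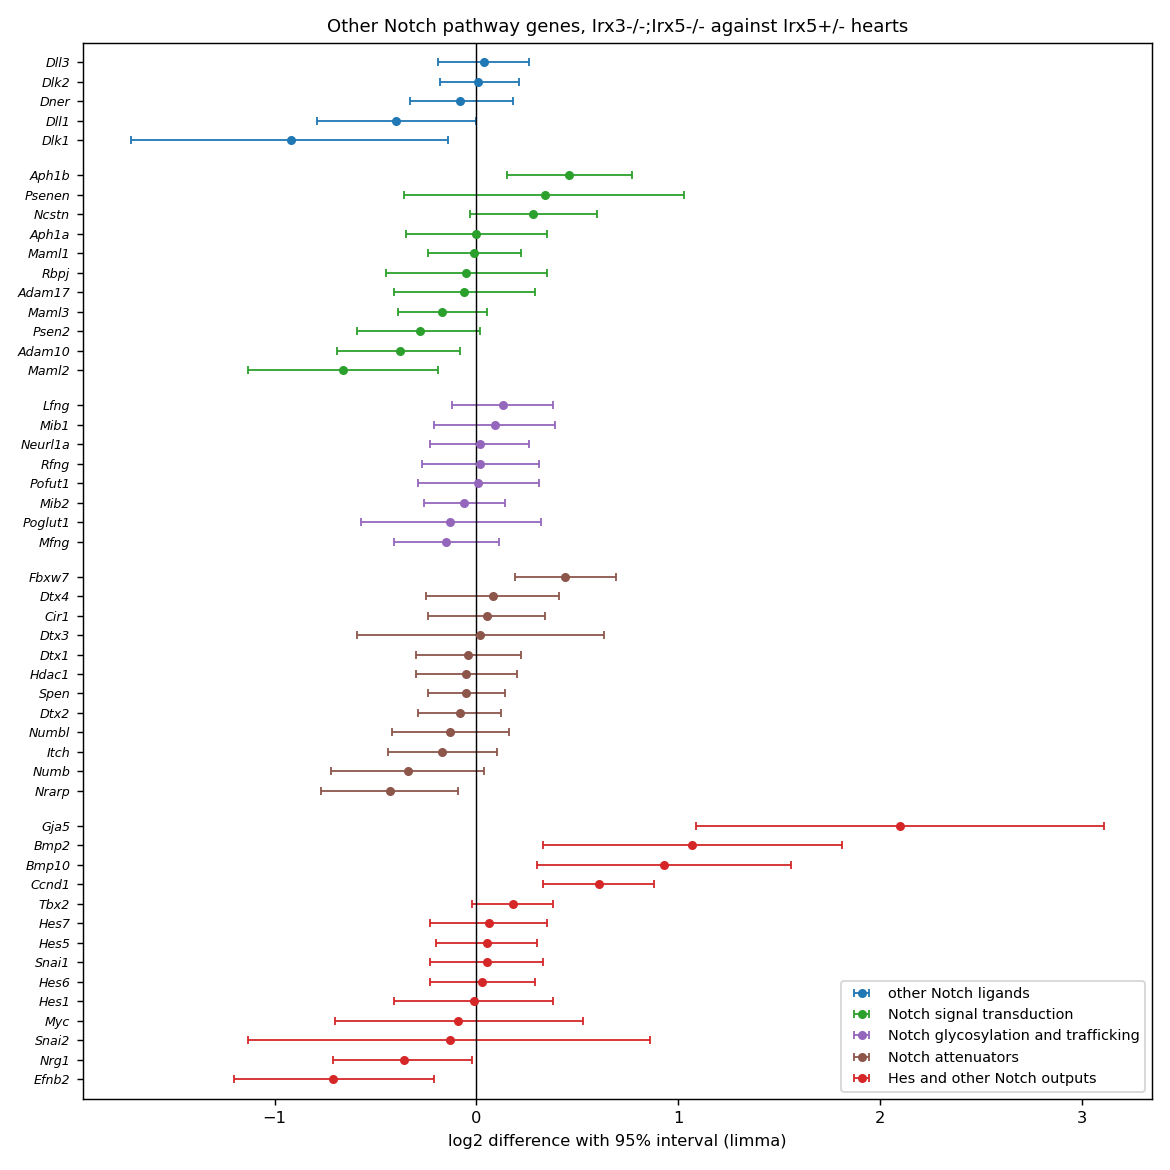
Log2 difference between double mutant and Irx5+/- hearts for 50 other Notch pathway genes, grouped by role and ordered within each role, with 95% intervals of the limma fit on 14 arrays. Gja5, Bmp2, Bmp10 and Ccnd1 lie farthest to the right among the outputs, Dlk1 farthest to the left among the ligands, and none of the genes passed after adjustment.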

How the data were processed

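Total RNA from E12.5 hearts was amplified, labelled with biotin and hybridised to 1 array per sample, per the labels. The authors deposited 1 log2 intensity per probe set and array, computed with RMA (affy in R). Per the file headers, their own statistics used limma with Benjamini-Hochberg adjustment after a floor of a group mean above 3. The sources used here give no versions. These log2 values entered the tests as deposited.

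Of 28763 probe sets, 21776 carry 1 gene symbol, 1592 several and 5395 none in the platform annotation. By gene ID 21685 of the 21776 were found in the RefSeq table of GRCm38.p6, and 91 were not. The probe set with the highest mean stood for a gene, which left 19931 genes. limma 3.58.1 (R 4.3.3) fitted a mean per genotype over 14 arrays (10 residual and 3.50 prior degrees of freedom, median residual SD 0.186), 2-sided, and called genes at an adjusted p under 0.05. The script was tested on simulated data. Errors of differences are SEs and those of means SDs.

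The members, gene lists and tests were chosen with earlier results of these data known. Named genes were the 10 members, Irx3 and Irx5, up to 6 other pathway genes per comparison by smallest p, and the 3 most correlated genes per member, leaving out small RNAs, predicted genes, and vomeronasal and olfactory receptors. Some further genes, named as examples or to describe a list, were outside this rule and chosen after their values were seen. Alternatives were a fit on the groups compared only, median centring, a filter on dim probe sets, all probe sets, an intensity trend with a robust prior, a replicate block, both marker means as terms, and leaving out each array. Neither labels nor files name a hybridisation batch. The number of arrays limits the precision.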

Additional observations from a re-analysis of the deposited data

Results flagged for a closer look

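Of 20 sets of 4 arrays (10 genes in double mutants and in Irx3-/-;Irx5+/- hearts), 3 held an array far from the others of its genotype, beyond Dixon's critical value of 0.829 for 4 arrays, and all 3 were Irx3-/-;Irx5+/- replicate 3. Chance marks about 1 in 20 such sets on average, but the sets share arrays and are not independent. Within groups r was 0.86 for Notch2 with Heyl, 0.82 for Notch2 with Hey1 and 0.72 for Hey1 with Heyl. The count of 3 can therefore not be weighed against that rate. Hey1 read 13.66 there, against 9.49 to 10.01 on the other 3 arrays of that genotype, a gap of 0.874 of the range. Notch2 read 10.34, against 9.09 to 9.28 on the others (0.843 of the range). Heyl read 9.14, against 8.28 to 8.42 (0.842 of the range). For Notch2 and Heyl the array also lay above all other 13 arrays, by 0.17 and 0.11, and its cardiomyocyte marker mean of 11.47 was the lowest of its genotype. The part of the array's makeup in these values was not tested.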

How the results depend on the processing

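Over 1730 alternative values of members and comparisons, from 22 settings, 0 passed an adjusted p of 0.05, as in the values reported. The cardiomyocyte marker mean as a term put the members' median for double mutants against Irx5+/- hearts at 0.01 in place of -0.19. Leaving out 1 array gave medians between -0.35 and -0.14 for that comparison, and between -0.24 and 0.14 in place of -0.07 for Irx5-/- against Irx5+/- hearts, the highest without Irx5-/- replicate 2 and the lowest without replicate 1. The ranges were -0.24 to 0.04 for Irx3-/-;Irx5+/- against Irx5+/- hearts and -0.27 to -0.04 for double mutants against Irx3-/-;Irx5+/- hearts. Single differences changed sign in 67 of 1120 values with 1 array left out and in 31 of 80 with the cardiomyocyte term. They did so in 14 of 80 with the endothelial term, 2 of 80 with the replicate block and 0 of 80 with centring. The filter on dim probe sets, all probe sets and the trend leave the differences themselves unchanged. Those settings alter only errors and adjustment, so no sign could change there. Replicate numbers did not pair the arrays: 19 pairs with the same number had correlations of deviations from -0.179 to 0.191, with a median of -0.055, against 0.021 for 54 other pairs. With the replicate block the medians were -0.16 for double mutants and -0.07 for Irx5-/- hearts against Irx5+/-, and 0 members passed. Counts over all genes moved more. Double mutants against Irx5+/- gave 4 genes and 0 to 42 under alternatives, the highest without Irx5-/- replicate 2. Against Irx3-/-;Irx5+/- hearts they gave 1 and 0 to 5, and against Irx5-/- hearts 0 and up to 2. Averaged loss of Irx5 gave 3 and 0 to 10, and Irx5-/- against Irx5+/- hearts 0 and up to 1. The causes were not tested. Without Irx3-/-;Irx5+/- replicate 4, whose description names another genotype, the differences of that group from Irx5+/- were -0.36 for Notch1, -0.37 for Notch3 and 1.44 for Hey1. For Notch4, averaged loss of Irx5 gave -0.32 to -0.24 with any 1 array left out, that array included. The search for genes most like each member without Irx3-/-;Irx5+/- replicate 3 was chosen after seeing the data.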

Other observations

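Among the 19931 genes, 10 had 1 array more than 2 log2 units above the next. After Hey1 came Mir10a, at 6.28 in Irx3-/-;Irx5+/- replicate 3 and 2.92 above the next array, and Mir421 and Mir374b stood 2.50 and 2.28 above the next in that same array. The others lay in other arrays, such as Hbb-bh1, an embryonic globin, 2.26 above the next in Irx3-/-;Irx5-/- replicate 2.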
